A study of Bos taurus with 60 samples.

Results

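The miR-30 family of the bovine liver was described through its 5 most abundant mature miRNAs, bta-miR-30a-5p, bta-miR-30b-5p, bta-miR-30c, bta-miR-30d and bta-miR-30e-5p, which were taken by name from the 1030 known mature miRNAs counted in each library. Small RNA from the liver of 60 finished beef steers had been sequenced, 1 library per steer, with 20 Angus, 20 Charolais and 20 Kinsella Composite (KC) steers. KC is a crossbred composite population, and all steers received a finishing diet of barley grain, barley silage and rumensin pellets. Residual feed intake (RFI) is the feed an animal eats above or below what its growth and size predict, so that a low-RFI steer is the more feed efficient one. The labels put 6 steers per breed in a low-RFI group and 6 in a high-RFI group, and give no RFI group for the other 8 of each breed. By the study's methods, the grouped steers were extreme in RFI and also consistent in miRNA expression within their breed. The RFI groups were thus chosen partly on these miRNA data. The steers came from 22 named sires, so that many were half-sibs, and no treatment or gene alteration was part of the design. The study's methods give different slaughter ages for the breeds, so breed and age cannot be told apart here, and the libraries come from liver tissue and not from sorted cells, so a smaller amount of a miRNA per cell and fewer cells that make it cannot be told apart either.

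A miRNA is a short RNA that is loaded into an Argonaute protein and guides it to mRNAs, mainly through the pairing of its bases 2 to 8, the seed, which leads to less protein from the target. miRNAs with the same seed form a family and can share many targets. The miR-30 family is known as abundant in liver and other epithelial tissues. Its members have been described as repressors of Beclin 1, a protein that starts autophagy (miR-30a), of microsomal triglyceride transfer protein, which loads lipid onto secreted lipoproteins (miR-30c), and of the connective tissue growth factor gene.

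The mature sequences are shown because they decide which reads can be told apart. They are written 5′ to 3′ as the study's list of known miRNAs gives them, with the seed in capitals.
bta-miR-30a-5p: uGUAAACAuccucgacuggaagcu
bta-miR-30d: uGUAAACAuccccgacuggaagcu
bta-miR-30e-5p: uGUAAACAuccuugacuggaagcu
bta-miR-30b-5p: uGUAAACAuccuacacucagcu
bta-miR-30c: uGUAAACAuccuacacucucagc
bta-miR-30f: uGUAAACAcccuacacucucagcu

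The seed GUAAACA was present in 6 of the 588 mature sequences listed, the 5 members and bta-miR-30f. Outside the seed the sequences formed 2 sets. Counted from 1 at the 5′ end, bta-miR-30a-5p differed from bta-miR-30d only by U12C and from bta-miR-30e-5p only by C13U, with the base of bta-miR-30a-5p first. In the other set bta-miR-30b-5p and bta-miR-30c shared their first 18 bases, and bta-miR-30c differed from bta-miR-30f by U9C over the 23 bases they can be compared on. A read with 1 sequencing error can therefore be counted for another member, and the counts of the less abundant members carry that uncertainty. Each member was listed with 1 precursor. In the RefSeq annotation of the ARS-UCD2.0 assembly, which is not the UMD3.1 build of the counts, MIR30C lies next to MIR30E within the gene NFYC, MIR30F next to MIR30A, and MIR30D next to MIR30B, with 0 genes lying wholly between the members of each pair. The neighbours thus come from different sequence sets.

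Library totals after averaging over precursors lay between 1930859 and 6759381 counts (median 4390275), and 3 counts corresponded to 0.444 to 1.554 CPM (counts scaled to a common library total, as edgeR does). All 5 members lay far above this floor, which covers counting error only, in every steer. Levels are given below as CPM after TMM scaling over the 60 steers, a scaling that sets libraries against each other on the bulk of their miRNAs. Of the 60 libraries 2 stood apart in this scaling, Angus replicate 3 and Charolais replicate 7 of the steers without an RFI group, with TMM factors of 0.673 and 0.698 against 0.851 to 1.168 in the other 58. In both libraries the summed level of the 5 mesenchymal and stellate cell markers, led by miR-143, was above that of each of the other 58 libraries, at 304760 and 369920 CPM against 117580 to 246290 CPM. The Angus library also lay outside the range of the other 58 for the hepatocyte list (355890 CPM, highest other 306020), the endothelial list (20715 CPM, highest other 20469) and the leukocyte list (2869 CPM, lowest other 3052), and the Charolais library for the neural list (20.2 CPM, highest other 15.8). A low TMM factor raises all levels of its library, so these sums rest partly on the scaling. The lists were not compared by library totals. The RFI comparisons do not include these 2 libraries, whose steers are outside the RFI groups that the study chose partly on miRNA expression. For the family share, breeds, sires, spread and correlations, values without these libraries are given as well. The 4 hepatocyte markers, among them miR-122 and miR-192, summed to between 182380 and 355890 CPM, and miR-192 alone had a median of 232600 CPM. Of the 4 muscle and 3 neural markers, bta-miR-206, bta-miR-124a and bta-miR-124b had a median of 0 CPM. The others had medians of 34.7 CPM (bta-miR-133a), 1.95 CPM (bta-miR-1), 0.886 CPM (bta-miR-133b) and 7.28 CPM (bta-miR-9-5p).

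The family as a whole took about 1 in 8 counts of a library, and bta-miR-30a-5p made up most of it. These shares hold for the deposited counts only. The deposited counts of bta-miR-30a-5p lie above the breed averages tabulated with the study in nearly every steer. The study's table also places it below bta-miR-26a in each breed. By those averages its share of the family and the family share of the library would be lower. Which of them is right cannot be told from the files, and the level, rank and shares of bta-miR-30a-5p, the family share and each ratio to bta-miR-30a-5p carry that doubt. The share of the 5 members in the library total was 12.1% ± 1.14 for Angus, 12.5% ± 1.23 for Charolais and 12.5% ± 1.38 for KC (SD over 20 steers per breed). Over all steers it ran from 9.82% to 15.8% with a median of 12.3%, and the breeds overlapped over most of that range. Without the 2 libraries that stood apart the mean was 12.1% for Angus and 12.3% for Charolais. Within the family bta-miR-30a-5p held 86.5% ± 1.44 for Angus, 87.1% ± 2.52 for Charolais and 87.3% ± 1.92 for KC (SD over 20 steers per breed). Its rank by count among the known miRNAs of a library was 3 or 4 in every steer, with a median of 4.

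The remaining members followed far below. bta-miR-30e-5p held 7.54% ± 0.870 of the family counts for Angus, 7.02% ± 1.37 for Charolais and 6.94% ± 1.13 for KC (SD over 20 steers per breed), and ranked 13 to 20 in the library. bta-miR-30d held 4.91% ± 0.522, 4.92% ± 1.06 and 4.76% ± 0.644 in the same order (SD, n = 20 each), and ranked 19 to 25. bta-miR-30c and bta-miR-30b-5p each stayed under 1.29%, with ranks of 40 to 65 and 60 to 73. The order bta-miR-30a-5p, bta-miR-30e-5p, bta-miR-30d, bta-miR-30c, bta-miR-30b-5p and bta-miR-30f held in 60 of 60 steers at every step. This is an order of counts, since ligation and amplification of small RNA can favour some sequences over others.

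**Figure D1:**
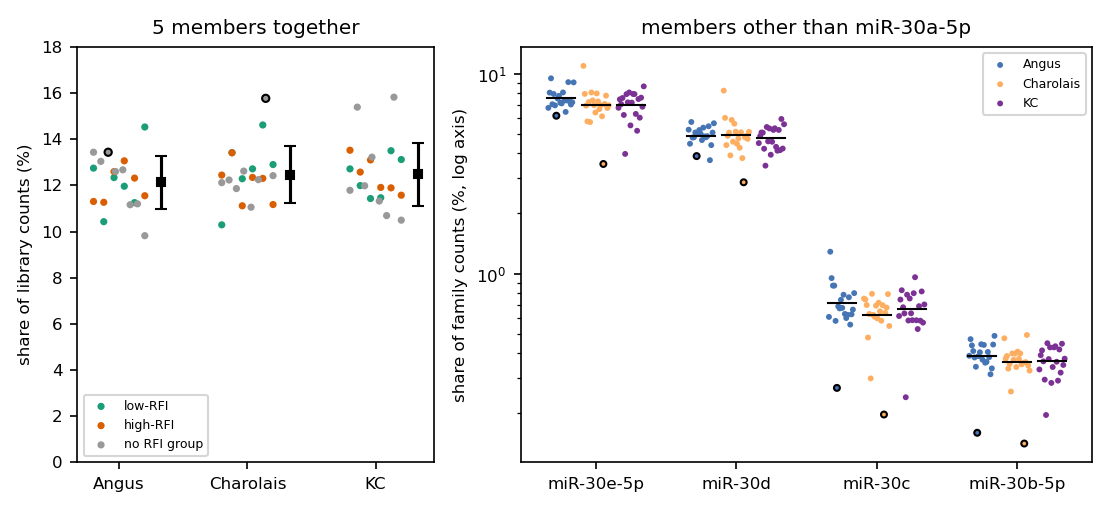
Left, the share of library counts held by the 5 members in each steer (%, linear axis) by breed, coloured by RFI group, with the mean and SD of 20 steers as black squares and bars. Right, the share of family counts (%, log axis) of the 4 members other than bta-miR-30a-5p, with breed means as lines. The family share lies between 9.82% and 15.8% in the 3 breeds, and the 2 libraries with low TMM factors, outlined in black, have the lowest shares of bta-miR-30b-5p.

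The ratios between members show how steady this make-up was. The ratio of bta-miR-30e-5p to bta-miR-30d, both from the first sequence set, stayed between 1.14 and 1.98 in the 60 steers, with a median of 1.48. The ratio of bta-miR-30c to bta-miR-30b-5p ran from 1.163 to 2.74 with a median of 1.77. Ratios to bta-miR-30a-5p were wider. That of bta-miR-30a-5p to bta-miR-30e-5p ran from 7.27 to 26.4 with a median of 12.1, and that of bta-miR-30a-5p to bta-miR-30b-5p from 168 to 661 with a median of 229. The highest values of both came from the Charolais library that stood apart in scaling.

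bta-miR-30f, which has the same seed and was not among the members, was the least abundant in each steer. It ranged from 189 to 416 CPM over the 60 steers, with a median of 339 CPM. bta-miR-30b-3p, the opposite arm of the bta-miR-30b hairpin, was counted as a separate row and was at 0.179 to 2.76 CPM in every steer, with a median of 1.22 CPM, which is close to the floor.

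**Figure D2:**
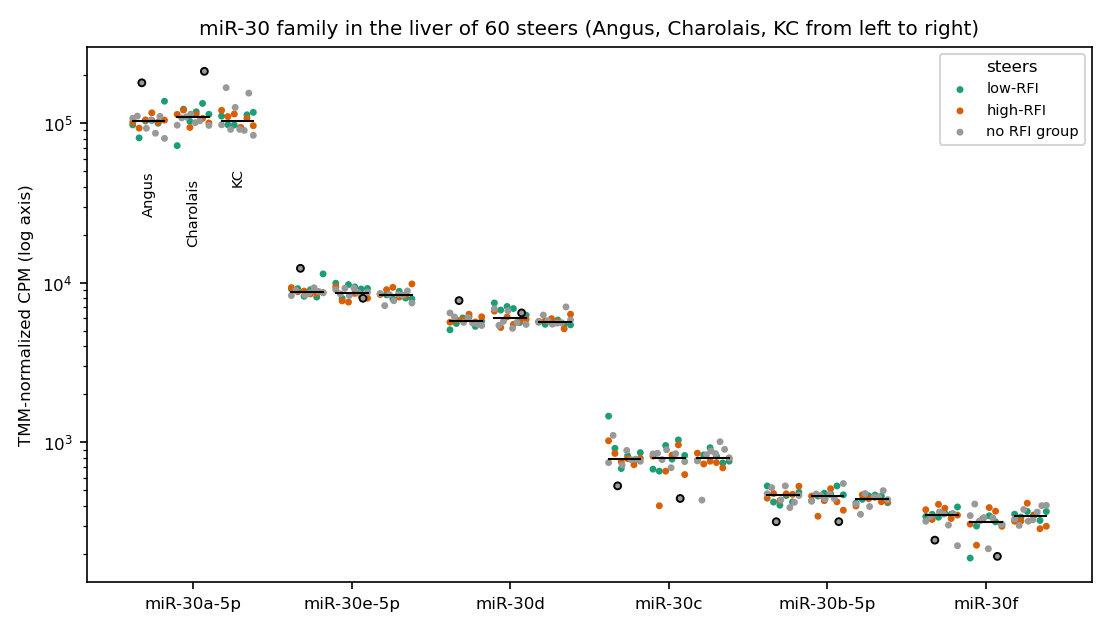
Level of the 5 members and bta-miR-30f in each of 60 steers, as TMM-normalized CPM on a log axis, with Angus, Charolais and KC from left to right within each miRNA. Points are steers coloured by RFI group, black lines are breed medians, and the 2 libraries with TMM factors of 0.673 and 0.698 are outlined in black. The levels fall from a median of 104460 CPM for bta-miR-30a-5p to 339 CPM for bta-miR-30f.

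Whether the family differed between efficient and inefficient steers was asked within each breed, with low-RFI set against high-RFI. None of the 5 members was called in any breed. The tests were quasi-likelihood F tests of edgeR fitted to all known miRNAs that reached 1 CPM in 6 or more of 12 steers, with Benjamini-Hochberg adjustment. At an adjusted p under 0.05 they called 0 of 5 members in each breed, where they called 0 miRNAs of the 373 tested in Angus, the 373 in Charolais or the 385 in KC, a background of 0%. At an unadjusted p under 0.05 they also called 0 of 5 members in each breed, and 14, 19 and 14 of all miRNAs tested. With the study's threshold, an unadjusted p under 0.05 and a fold change above 1.5, the members called were again 0 in the fits without sire, against 2.41% of all miRNAs in Angus, 1.88% in Charolais and 1.82% in KC. DESeq2 and the edgeR likelihood-ratio test likewise called 0 members, and each called 1 of all miRNAs in KC at an adjusted p under 0.05.

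bta-miR-30a-5p had similar medians in the RFI groups of each breed. In Angus it was at a lowest, median and highest level of 80761, 101437 and 137045 CPM in the 6 low-RFI steers and 92958, 102816 and 115961 CPM in the 6 high-RFI steers. In Charolais these were 72210, 115694 and 132840 CPM in low-RFI and 93858, 110169 and 120660 CPM in high-RFI steers. In KC they were 93676, 104087 and 116783 CPM against 93836, 108560 and 120243 CPM. In Angus and Charolais the high-RFI steers lay within the range of the low-RFI steers, and in KC the groups covered nearly the same range. The log2 differences from edgeR were 0.018 in Angus (95% interval -0.18 to 0.22), -0.0078 in Charolais (-0.27 to 0.26) and -0.030 in KC (-0.19 to 0.13), with adjusted p of 0.993, 0.998 and 0.995.

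bta-miR-30e-5p pointed one way in Angus and Charolais and the other way in KC, without passing the test in any breed. Its lowest, median and highest levels in Angus were 8134, 9097 and 11358 CPM in low-RFI and 8512, 8730 and 9323 CPM in high-RFI steers. In Charolais they were 7972, 9313 and 9937 CPM against 7564, 8125 and 9443 CPM, and 5 of 6 low-RFI steers exceeded the median of the high-RFI group. In KC they were 7913, 8209 and 8841 CPM against 8136, 8745 and 9833 CPM, and 1 of 6 low-RFI steers exceeded the median of the high-RFI group. The groups overlapped in each breed. The log2 differences were 0.076 (SE 0.077) in Angus, 0.13 (SE 0.088) in Charolais and -0.10 (SE 0.059) in KC, with edgeR adjusted p of 0.969, 0.987 and 0.966. Without the low-RFI steer at 11358 CPM, replicate 6, the Angus value was -0.019.

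bta-miR-30d was not called either. In Charolais its lowest, median and highest levels were 5643, 6821 and 7474 CPM in low-RFI and 5245, 5837 and 6641 CPM in high-RFI steers, with 5 of 6 low-RFI steers over the median of the other group. In Angus they were 5073, 5651 and 6108 CPM against 5661, 5858 and 6353 CPM, and in KC 5445, 5579 and 5838 CPM against 5149, 5746 and 6354 CPM. Thus the low-RFI median was the higher one in Charolais and the lower one in Angus and KC, with overlap in every breed. The log2 differences were -0.057 (SE 0.061) in Angus, 0.15 (SE 0.090) in Charolais and -0.044 (SE 0.054) in KC, and the edgeR adjusted p were 0.969, 0.906 and 0.995.

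bta-miR-30c and bta-miR-30b-5p, the less abundant members, were also not called. bta-miR-30c had log2 differences of 0.18 (SE 0.15) in Angus, 0.16 (SE 0.18) in Charolais and 0.083 (SE 0.072) in KC, with edgeR adjusted p of 0.969, 0.987 and 0.995. In Angus the low-RFI steers were at 686 to 1461 CPM and the high-RFI steers at 725 to 1024 CPM. The highest low-RFI steer stood at 1461 CPM, and without it the Angus log2 difference was -0.034. In Charolais the range was 661 to 1036 CPM in low-RFI and 401 to 966 CPM in high-RFI steers, and in KC 744 to 927 CPM against 693 to 857 CPM. bta-miR-30b-5p had log2 differences of -0.037 (SE 0.082), 0.13 (SE 0.11) and 0.027 (SE 0.065) in Angus, Charolais and KC. All 6 low-RFI Charolais steers exceeded the median of the high-RFI group, 428 CPM, yet the ranges of 430 to 534 CPM and 345 to 513 CPM overlapped and the edgeR adjusted p was 0.987.

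In these 15 comparisons the 95% intervals reached from -0.27, for bta-miR-30a-5p in Charolais, to 0.55, for bta-miR-30c in Charolais, on the log2 scale. A change of 1.5-fold in either direction was therefore outside every interval of these fits, while smaller changes were not. These intervals hold for steers chosen partly for consistent miRNA expression, and the spread between unselected steers may be wider. With sire as a block the log2 difference of bta-miR-30a-5p in Charolais was -0.62 (edgeR adjusted p 0.135) and passed the unadjusted p and fold threshold, as did 12.9% of all miRNAs, with 1 sire that had steers in both groups. In Angus 1 member passed the unadjusted p in that fit, as did 24 of all 373 miRNAs, and 0 members passed with the fold. On simulated counts with 200 changed miRNAs, the same test at an adjusted p under 0.05 found 61.2% of those changed 1.5-fold for Angus, 50.7% for Charolais and 67.2% for KC. These 200 were of 373 miRNAs tested in Angus and Charolais and of 385 in KC. With few changed miRNAs the adjustment is stricter, which was not simulated. The shares therefore do not give the chance of calling 1 changed member.

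Over the 36 steers with an RFI group, with breed as a term, the intervals were narrower. edgeR called 0 of 5 members at an adjusted p under 0.05, and 0 of 426 miRNAs, a background of 0%. At an unadjusted p under 0.05 the counts were 0 of 5 and 13 of 426, and with a fold change above 1.5 they were 0 of 5 members and 0.704% of all miRNAs. DESeq2 also called 0 of both at an adjusted p under 0.05. The log2 difference between low-RFI and high-RFI was -0.035 (95% interval -0.16 to 0.089) for bta-miR-30a-5p, 0.0040 (-0.084 to 0.092) for bta-miR-30e-5p and -0.012 (-0.092 to 0.068) for bta-miR-30d. It was 0.11 (-0.068 to 0.29) for bta-miR-30c and 0.0099 (-0.085 to 0.11) for bta-miR-30b-5p. The median over the 5 members was 0.0040, beside -0.016 over all miRNAs tested. The family share of the library was 12.4% ± 1.20 in the 18 low-RFI steers and 12.2% ± 0.770 in the 18 high-RFI steers (SD).

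The opposite directions in Charolais and KC were tested as an interaction of RFI group and breed in the same 36 steers. edgeR called 0 of 5 members and 0 of 426 miRNAs at an adjusted p under 0.05, a background of 0%, while the likelihood-ratio test called 1 of all miRNAs and 0 members. The unadjusted p was 0.0446 for bta-miR-30d, 1 of 16 miRNAs under 0.05, and 0.0677 for bta-miR-30e-5p, both with an edgeR adjusted p of 0.994. For bta-miR-30a-5p, bta-miR-30b-5p and bta-miR-30c the unadjusted p were 0.940, 0.343 and 0.896. Without TMM the unadjusted edgeR p of bta-miR-30d and bta-miR-30e-5p were 0.0321 and 0.0485, where 16 of 426 miRNAs were under 0.05. With precursors summed they were 0.0198 and 0.0341 (18 of 420 miRNAs), and by the likelihood-ratio test 0.0824 and 0.110 (20 of 426). Neither was under an adjusted p of 0.05 in these alternatives.

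**Figure D3:**
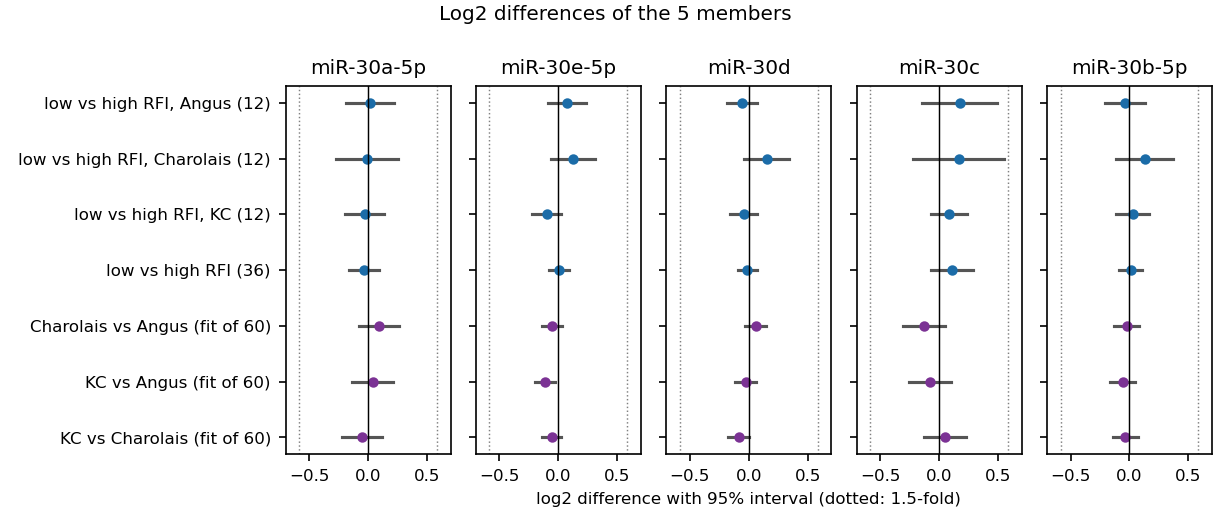
Log2 difference (points) with its 95% interval (lines) for each of the 5 members in 7 comparisons, from edgeR fits of all known miRNAs. The upper 4 rows set low-RFI against high-RFI steers, and the lower 3 set breeds against each other in a fit of 60 steers. All intervals lie within the dotted lines at a 1.5-fold change, and all but that of bta-miR-30e-5p for KC against Angus cover 0.

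Between breeds, tested over the 60 steers on 397 miRNAs that reached 1 CPM in 20 or more steers, the family was nearly level. The F test of edgeR over the 3 breeds called 0 of 5 members at an adjusted p under 0.05, while it called 77 of 397 miRNAs, or 19.4%. At an unadjusted p under 0.05 the counts were 1 of 5 and 132 of 397. The median log2 difference over the members was -0.022 for Charolais against Angus, -0.059 for KC against Angus and -0.052 for KC against Charolais, beside -0.016, -0.00089 and -0.0047 over all 397 miRNAs.

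bta-miR-30e-5p came closest to a breed difference. Its levels were 8134, 8803 and 12310 CPM (lowest, median and highest of 20) in Angus, 7564, 8686 and 9937 CPM in Charolais and 7187, 8418 and 9833 CPM in KC. The 3 ranges overlapped, and the highest Angus value came from the library that stood apart in scaling. KC was lower than Angus by a log2 difference of -0.11 (95% interval -0.20 to -0.027), with an edgeR adjusted p of 0.0657 against a background of 12.8% called. Over the 11 alternatives run for it, the adjusted p lay between 0.0230 and 0.609. It passed under DESeq2 (0.0316, where 14.6% of all miRNAs were called) and with precursor counts summed (0.0230, where 16.1% were called), and it was 0.0804 without the 2 libraries that stood apart. Against Charolais, KC differed in bta-miR-30e-5p by -0.058 (adjusted p 0.400, edgeR).

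bta-miR-30d was at 5073, 5800 and 7732 CPM in Angus, 5180, 6004 and 7474 CPM in Charolais and 5149, 5714 and 7061 CPM in KC. KC was lower than Charolais by a log2 difference of -0.086 (95% interval -0.17 to 0.0018, edgeR adjusted p 0.187, background 16.6%). In the 36 steers with an RFI group alone the difference was -0.15 with an edgeR adjusted p of 0.0207, where 14% of all miRNAs were called. Over its 11 alternatives the adjusted p ran from 0.0207 to 0.674.

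For bta-miR-30a-5p the levels were 80189, 103493 and 178770 CPM in Angus, 72210, 108492 and 210910 CPM in Charolais and 83827, 102438 and 166747 CPM in KC. The highest Angus and Charolais values are those of the libraries that stood apart, and by library totals alone these 2 steers were at 120335 and 147126 CPM. The log2 differences were 0.090 (SE 0.085) for Charolais against Angus, 0.038 (SE 0.085) for KC against Angus and -0.052 (SE 0.085) for KC against Charolais, with edgeR adjusted p of 0.618, 0.821 and 0.772. bta-miR-30c, with breed medians of 788, 803 and 798 CPM, and bta-miR-30b-5p, with 465, 461 and 442 CPM, had edgeR adjusted p of 0.457 or more for each pair of breeds. For Charolais against Angus 3.02% of all miRNAs were called. Without the 2 libraries that stood apart, the log2 difference of bta-miR-30a-5p was 0.066 for Charolais against Angus, 0.080 for KC against Angus and 0.014 for KC against Charolais.

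bta-miR-30f, of the same seed, had a log2 difference of 0.16 for KC against Charolais (95% interval 0.021 to 0.31, edgeR adjusted p 0.114) and was not called either.

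Sires were compared within each breed, among sires with at least 2 steers, to see whether half-sib families differed. Angus had 5 such sires with 18 steers, Charolais 5 with 20 and KC 2 with 11. edgeR called 0 of 5 members in each breed at an adjusted p under 0.05, against a background of 0% for Angus, 1% for Charolais and 0% for KC, and 0 of 5 at an unadjusted p under 0.05. At that unadjusted p, 28 of all miRNAs were called for Angus, 37 for Charolais and 13 for KC, and the likelihood-ratio test called 2, 11 and 0 at an adjusted p under 0.05. Without the 2 libraries that stood apart edgeR again called 0 of 5 members in Angus and Charolais at an adjusted p under 0.05. It called 0 of 393 miRNAs in Angus and 4 of 400 in Charolais. Sire means of bta-miR-30a-5p ran from 95655 to 116240 CPM in Angus, from 103440 to 138510 CPM in Charolais and from 105410 to 115050 CPM in KC. The upper ends in Angus and Charolais came from the sires of the 2 libraries that stood apart, and without these libraries the highest sire means were 108361 and 114377 CPM. The widest ratio between sire means was 1.37, for bta-miR-30c in Angus. The lowest edgeR adjusted p of a member was 0.608, for bta-miR-30a-5p in Charolais.

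Members differed in how much they varied between steers of a breed. bta-miR-30e-5p and bta-miR-30d were among the steadiest miRNAs of the liver, with an SD of log2 CPM within breeds of 0.124 and 0.130, which ranked 8 and 13 from the lowest of 397 miRNAs. The median SD over all 397 was 0.424, and over the 108 miRNAs with a mean of at least 100 CPM it was 0.205. bta-miR-30b-5p had an SD of 0.165, rank 31 of these 108. bta-miR-30a-5p, although the most abundant member, had an SD of 0.266, rank 77 of 108, and bta-miR-30c had 0.295, rank 83. Without the 2 libraries that stood apart the SDs were 0.108 for bta-miR-30e-5p, 0.120 for bta-miR-30d, 0.137 for bta-miR-30b-5p, 0.211 for bta-miR-30a-5p and 0.268 for bta-miR-30c, in the same order.

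**Figure D4:**
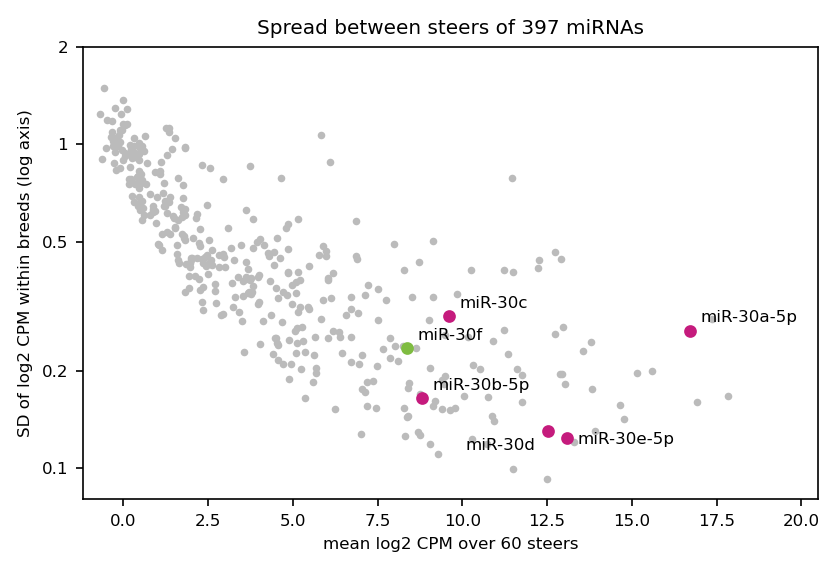
SD of log2 CPM between steers within breeds (log axis) against mean log2 CPM over 60 steers, one grey point for each of 397 miRNAs. Members are in magenta and bta-miR-30f in green. bta-miR-30d and bta-miR-30e-5p lie at the lower edge for their level, at 0.130 and 0.124, and bta-miR-30a-5p lies above them at 0.266.

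Whether the members rose and fell together across steers was examined with breed means removed from log2 CPM, over the 15 pairs among the 5 members and bta-miR-30f. The p-values come from 100000 permutations of steers within breeds, two-sided, treat half-sibs as independent, and are Benjamini-Hochberg adjusted over the 15 pairs. By Pearson's r, 6 pairs were under an adjusted p of 0.05. The pair bta-miR-30b-5p and bta-miR-30c had the highest r, 0.70 (Spearman's rho 0.47, permutation p 1e-05 and 0.0002, adjusted 0.00015 and 0.0015). Within breeds this r was 0.67 for Angus, 0.76 for Charolais and 0.61 for KC, and it was 0.61 over 58 steers after leaving out the 2 farthest on bta-miR-30b-5p, which are the libraries that stood apart. bta-miR-30c and bta-miR-30f had r = 0.55 (rho 0.52, adjusted permutation p 0.00015 and 0.00075), with 0.36, 0.70 and 0.42 within Angus, Charolais and KC and 0.51 without the 2 steers farthest on bta-miR-30c. bta-miR-30b-5p and bta-miR-30f had r = 0.47 (rho 0.30, adjusted permutation p 0.00415 and 0.0820), which was 0.28 without the 2 libraries that stood apart. These 3 miRNAs form the second sequence set.

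In the other 3 pairs under the threshold, r moved toward 0 without the 2 libraries that stood apart. bta-miR-30a-5p and bta-miR-30b-5p had r = -0.36 (rho -0.055, adjusted permutation p 0.0194 and 0.949), and r was 0.00049 without these libraries. bta-miR-30a-5p and bta-miR-30c had r = -0.38 (rho -0.071, adjusted permutation p 0.0180 and 0.949), and -0.14 without them. bta-miR-30d and bta-miR-30e-5p had r = 0.37 (rho 0.18, adjusted permutation p 0.0180 and 0.418), and 0.23 without them. By rho none of these 3 pairs was under an adjusted p of 0.05. Within breeds the r of bta-miR-30a-5p with bta-miR-30b-5p was -0.31 in Angus, -0.38 in Charolais, -0.42 in KC, with bta-miR-30c -0.35, -0.33 and -0.51, and that of bta-miR-30d with bta-miR-30e-5p 0.45, 0.36 and 0.29. 

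Of the pairs that lie next to each other in the genome, 1 was under an adjusted p of 0.05 by rho and 0 by r. bta-miR-30c and bta-miR-30e-5p had r = 0.21 and rho 0.35 (adjusted permutation p 0.220 and 0.0437), with -0.15, 0.52 and 0.34 in Angus, Charolais and KC. Over the 58 steers without the libraries that stood apart their r was 0.40. It was 0.045 without the 2 steers farthest on bta-miR-30c and 0.44 without the 2 farthest on bta-miR-30e-5p. Over 60 steers the r was -0.11 for bta-miR-30a-5p and bta-miR-30f and -0.16 for bta-miR-30b-5p and bta-miR-30d, with adjusted permutation p of 0.517 and 0.413. The scaling set many of these values. By library totals alone 14 of 15 pairs were under an adjusted p of 0.05, with r of bta-miR-30b-5p and bta-miR-30d at 0.51 and of bta-miR-30b-5p and bta-miR-30c at 0.83.

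**Figure D5:**
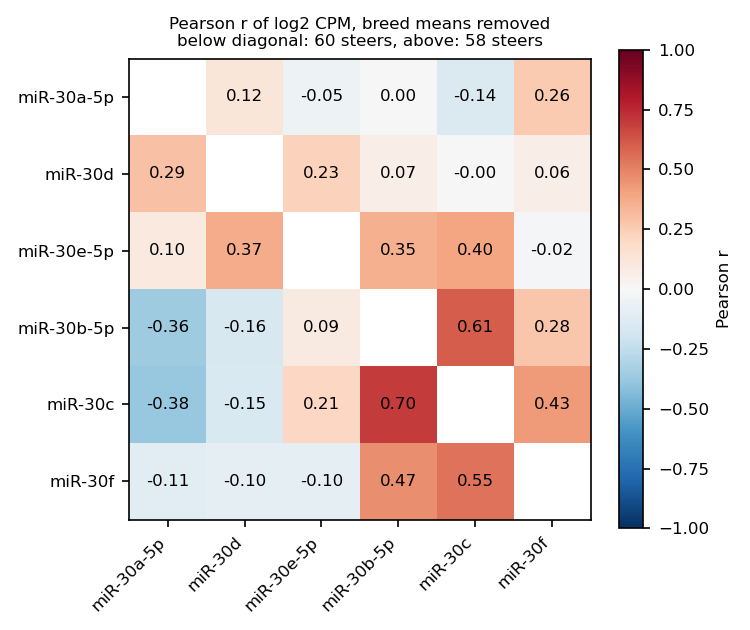
Pearson r of log2 CPM, with breed means removed, between the 5 members and bta-miR-30f, for 60 steers below the diagonal and for the 58 steers without the 2 libraries with low TMM factors above it. The pair bta-miR-30b-5p and bta-miR-30c stays at 0.70 and 0.61, and the negative values of bta-miR-30a-5p with them, -0.36 and -0.38 over 60 steers, lie at 0.00049 and -0.14 over 58.

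For each member the miRNAs with the most similar pattern over the 60 steers were sought by the same r, as a description. The candidates were 103 non-members with a mean of at least 100 CPM, among them bta-miR-30f of the same seed. These values share the libraries and their scaling. bta-miR-30a-5p was most like bta-miR-191 and bta-miR-10a, with r = 0.78 and 0.75, and 0.64 and 0.62 over the 58 steers without the libraries that stood apart. The median r of bta-miR-30a-5p over all 103 was 0.047. bta-miR-30b-5p was most like bta-miR-339a and bta-miR-193b, with r = 0.60 and 0.57 (0.45 and 0.46 over 58). bta-miR-30c was most like bta-miR-30f and bta-miR-16a, with r = 0.55 and 0.53 (0.43 and 0.42 over 58). Over 58 steers bta-miR-148b was first for bta-miR-30c with 0.46, ahead of bta-miR-30f. bta-miR-30d was most like bta-miR-2284x and bta-miR-92a, with r = 0.55 and 0.46 (0.42 and 0.48 over 58). Over 58 steers bta-miR-122, a hepatocyte miRNA, took the first place with 0.54. The summed hepatocyte list, which is mostly miR-192, had r = 0.13 with bta-miR-30d over 60 steers and -0.090 over 58. bta-miR-30e-5p was most like bta-miR-126-5p, an endothelial miRNA, and bta-miR-660, with r = 0.53 and 0.51 (0.42 and 0.36 over 58, where bta-miR-101 took the second place with 0.38).

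Marker lists of liver cell types were set beside the members in the same way, as sums of CPM. Some sums were mostly 1 marker. The median of miR-192 was 232600 CPM beside 243010 CPM for the hepatocyte sum. That of miR-143 was 165900 CPM beside 167730 CPM for the mesenchymal and stellate sum, and that of miR-486 was 6797 CPM beside 7406 CPM for the erythroid sum. That of miR-126-5p was 15340 CPM beside 17007 CPM for the endothelial sum. That of miR-142-5p was 3409 CPM beside 3745 CPM for the leukocyte sum. The 5 leukocyte markers, led by miR-142-5p, were all detected and summed to 2869 to 5083 CPM, with medians of 3731, 3727 and 3776 CPM in Angus, Charolais and KC and 3843 and 3661 CPM in low-RFI and high-RFI steers. Their sum had r = -0.35 with bta-miR-30a-5p and 0.44 with bta-miR-30b-5p, which were -0.15 and 0.29 over 58 steers. The 5 mesenchymal and stellate markers had r = 0.60 with bta-miR-30a-5p and -0.57 with bta-miR-30b-5p, and 0.32 and -0.31 over 58 steers. The 2 endothelial markers, at 13866 to 20715 CPM in all, had r = 0.50 with bta-miR-30e-5p and 0.39 with bta-miR-30d, and 0.40 and 0.33 over 58 steers. The 4 hepatocyte markers had r = 0.46 with bta-miR-30a-5p and 0.39 over 58 steers. The 3 erythroid markers summed to 3513 to 14485 CPM and had r = 0.45 with bta-miR-30a-5p, 0.37 over 58 steers. The 5 biliary markers summed to 111 to 367 CPM and had r = -0.44 with bta-miR-30d, -0.43 over 58 steers. The 4 muscle markers, led by bta-miR-133a, summed to 20.1 to 59.7 CPM, and bta-miR-206 was at or near 0. Of the 3 neural markers only bta-miR-9-5p had a median of at least 1 CPM. The part of cell type make-up in the differences between steers was not tested.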

How the data were processed

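The authors sequenced Illumina TruSeq small RNA libraries of liver RNA, trimmed reads with cutadapt 1.16, kept reads by length, removed reads of other small RNAs, and counted the rest with Bowtie 1.1.1 and miRDeep2 against known bovine miRNAs (build UMD3.1). The deposited values are raw read counts per mature miRNA and precursor, without normalization. Total averaged counts ranged from 1930859 to 6759381 per steer. Counts over precursors were averaged and rounded. Groups follow the labels. Nothing in the labels gives a sequencing batch.

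Fits used edgeR 4.0.16 (limma 3.58.1, R 4.3.3), TMM scaling, the quasi-likelihood F test and Benjamini-Hochberg adjustment over all miRNAs tested, and DESeq2 1.42.0 as an alternative. The SE of a log2 difference is its size over the square root of F. Correlations used log2 CPM with a prior count of 0.5 in Python 3.11.15 (numpy 2.4.6). edgeR was tested on simulated data with 200 changed miRNAs per comparison. Of those changed 2-fold it found 81.8% in Angus, 78.8% in Charolais and 86.4% in KC, on 373, 373 and 385 miRNAs, and 98.5% for KC against Angus on 397. These rates hold for that number of changed miRNAs only.

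Members, marker lists and comparisons were chosen with earlier results of these data known. Named are the members, other miRNAs with that name or seed, the 2 non-members most like each member, and markers. Alternatives covered test, scaling, filter, precursors, sire, choice of steers and leaving out each steer. Predicted miRNAs were not analysed here.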

Additional observations from a re-analysis of the deposited data

Results flagged for a closer look

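Of 54 groups of 6 or 8 steers tested, over the levels of the 5 members and the family share, 9 held a steer far from the rest by Dixon's test at the 95% level. Chance flags about 1 in 20 groups. Of the 9, 6 belong to the 2 libraries with low TMM factors. Angus replicate 3 without an RFI group was highest for bta-miR-30a-5p at 178770 CPM (nearest of its group 110550), for bta-miR-30d at 7732 CPM (6468) and for bta-miR-30e-5p at 12310 CPM (9303). Charolais replicate 7 without an RFI group was highest for bta-miR-30a-5p at 210910 CPM (113827), lowest for bta-miR-30c at 446 CPM (694) and highest in family share at 15.8% (12.6%). These CPM are after TMM scaling. By library totals alone the Angus steer was at 120335 CPM for bta-miR-30a-5p, 5205 CPM for bta-miR-30d and 8286 CPM for bta-miR-30e-5p. The Charolais steer was at 147126 CPM for bta-miR-30a-5p and 311 CPM for bta-miR-30c. Dixon's test was not run on levels by library totals. KC replicate 2 without an RFI group was lowest for bta-miR-30c at 435 CPM (766). In the RFI groups, the Angus low-RFI replicate 1 was highest for bta-miR-30c at 1461 CPM (919), and the Angus low-RFI replicate 6 was highest for bta-miR-30e-5p at 11358 CPM (9190). No cause of these values was tested.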

How the results depend on the processing

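No test called a member in an RFI comparison at an adjusted p under 0.05 under any alternative run. At that level the edgeR fit with sire as a block called 5 of 373 miRNAs in Charolais and 1 of 426 over the 36 steers. The likelihood-ratio test and DESeq2 each called 1 of 385 in KC. With sire as a block 1 member passed the unadjusted p and fold threshold in Charolais, bta-miR-30a-5p at -0.62, where 12.9% of miRNAs passed, on 1 sire with both groups. The cause was not tested, here or below. Between breeds the edgeR F test called 1 member at an adjusted p under 0.05 with precursors summed, and 90 of 391 miRNAs (23%). With the 36 steers it called 1 member and 55 of 392 miRNAs (14%). For KC against Angus bta-miR-30e-5p was called with precursors summed (16.1% of all miRNAs called) and under DESeq2 (14.6%). For KC against Charolais bta-miR-30d was called with the 36 steers, where 14% of all miRNAs were called. With precursors summed the family share was 10.7% in Angus, 10.97% in Charolais, 10.9% in KC. Without TMM 14 pairs correlated at an adjusted p under 0.05.

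Signs of small log2 differences turned as follows. With every miRNA of at least 1 count, bta-miR-30a-5p was -0.010 in Angus and 0.014 in Charolais, and bta-miR-30d 0.0065 over 36 steers. With precursors summed, bta-miR-30a-5p was -0.0082 in Angus and 0.017 in Charolais. Without TMM, bta-miR-30a-5p was 0.045 in Charolais, 0.021 over 36 steers and 0.0040 for KC against Charolais, bta-miR-30d 0.053 over 36 steers, and bta-miR-30b-5p 0.0041 for KC against Charolais. bta-miR-30d over 36 steers was 0.0040 with RLE factors and 0.0040 under DESeq2. With sire as a block, Angus gave 0.028 for bta-miR-30b-5p, -0.073 for bta-miR-30c and 0.029 for bta-miR-30d, Charolais -0.024 for bta-miR-30b-5p, KC 0.00034 for bta-miR-30d, and the 36 steers -0.043 for bta-miR-30c and 0.086 for bta-miR-30d. With 1 steer per sire, Charolais against Angus gave 0.013 for bta-miR-30b-5p and 0.019 for bta-miR-30e-5p, KC against Angus 0.042 for bta-miR-30d, and KC against Charolais 0.064 for bta-miR-30a-5p and -0.12 for bta-miR-30c. Without the 2 libraries that stood apart, an alternative chosen after seeing the data, bta-miR-30a-5p was 0.014 for KC against Charolais and its r with bta-miR-30b-5p 0.0005. Without TMM, r was -0.27 and -0.44 for bta-miR-30a-5p with bta-miR-30d and bta-miR-30e-5p, 0.51 and 0.41 for bta-miR-30d with bta-miR-30b-5p and bta-miR-30c, and 0.40 and 0.42 for bta-miR-30f with bta-miR-30d and bta-miR-30e-5p.

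Leaving out each steer called no member, and no count over all miRNAs is given for these fits. Log2 differences ran from -0.0998 to 0.071 for bta-miR-30a-5p, -0.034 to 0.25 for bta-miR-30c and -0.019 to 0.10 for bta-miR-30e-5p in Angus, from -0.097 to 0.12 for bta-miR-30a-5p in Charolais, and from -0.030 to 0.046 for bta-miR-30b-5p in KC. Over 36 steers they ran from -0.049 to 0.013 for bta-miR-30a-5p, -0.0089 to 0.038 for bta-miR-30b-5p, -0.025 to 0.029 for bta-miR-30d and -0.0041 to 0.032 for bta-miR-30e-5p. The number in a steer's title does not pair steers, since same-numbered steers of different breeds had a median r of 0.0225, and with it as a replicate block 0 members were called. With that block the edgeR F test over breeds called 76 of 397 miRNAs at an adjusted p under 0.05. DESeq2 was not run for the F test over breeds. The lowest count of any member in a steer was 793.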
